A study of Mus musculus with 3 samples.

Results

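Vcam1 and 4 further adhesion molecules of the vessel wall, Icam1, Icam2, Sele and Selp, were followed through marker-gated smooth muscle cells (SMC), fibroblasts, endothelial cells (EC) and immune cells of the mouse ascending aorta. They are 5 of the 32285 genes in the deposited feature lists, matched by symbol, and each symbol occurred once. They were chosen by a measured value, the level of Vcam1, which was already known to differ strongly between mutant and WT SMC of these libraries, so the Vcam1 values in SMC are a description and carry no test. The series holds 3 droplet single-cell RNA libraries from male C57BL/6J mice killed at P45. The WT library pooled 3 mice. The mgR library pooled 3 mice homozygous for Fbn1 mgR, a hypomorphic allele that lowers fibrillin-1 and serves as a model of severe Marfan syndrome. The mgR-LOS library pooled 4 such homozygotes given losartan, a blocker of the angiotensin II type 1 receptor, at 0.6 g/L in the drinking water from P16 to P45. The labels do not say whether the mgR mice drank vehicle. The deficiency is germline and touches every cell type, and with 1 library per condition no test between conditions was possible. Intervals are 95% and cover counting error only, and every contrast compares libraries of pooled mice. The mgR library stands in both the comparison with WT and the comparison with mgR-LOS.

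These molecules let blood leukocytes stop on the vessel wall and cross it. The selectins encoded by Sele and Selp bind carbohydrate ligands on passing leukocytes and slow them to a roll. The products of Icam1 and Icam2 bind the β2 integrins, and that of Vcam1 binds the integrin α4β1 on monocytes and lymphocytes, which holds the cell firmly. Icam2 and, in stored form, P-selectin are present on resting endothelium. Vcam1, Icam1 and Sele are known targets of TNF, IL-1 and NF-κB. Vcam1 is also made outside the endothelium, by modulated SMC, adventitial fibroblasts and some tissue macrophages.

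A level here (CPM) is the sum of the UMIs of a gene over the barcodes of a gate, scaled to 1000000 UMIs in all. A UMI marks one captured transcript, read from its 3′ end, and levels of different genes are not compared. A barcode entered a gate when its panel of 8 marker genes passed a set level and no other panel did, and no panel held an adhesion molecule listed here. In WT, mgR and mgR-LOS the SMC gate held 3632, 3144 and 7872 barcodes, the fibroblast gate 1283, 2259 and 3009, the EC gate 108, 217 and 175, and the immune gate 138, 1676 and 793. Median depth over barcodes that passed the filters was 13636, 12411 and 8334 UMIs in the same order, so shares of barcodes are given after thinning each barcode to 1000 UMIs. The libraries shared 11 to 34 barcode sequences pairwise. Fbn1 checked the labels, as its level in SMC was 250.4 CPM in WT, 79.5 CPM in mgR and 68.1 CPM in mgR-LOS. The panels of other classes were read inside the SMC gate, where the fibroblast panel made up 1.61, 1.13 and 1.34 UMIs per 10000 in WT, mgR and mgR-LOS, and the EC panel 0.230, 0.363 and 0.310. The immune panel there stood at 0.0258, 0.128 and 0.121 UMIs per 10000, higher in both mutant libraries as Vcam1 was, and its part in the Vcam1 difference was not tested.

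In GRCm38 (mm10) coordinates, Vcam1 (ENSMUSG00000027962) lies on chr3:116109949-116129688 on the minus strand and Icam2 (ENSMUSG00000001029) on chr11:106377656-106388075 on the minus strand. Icam1 (ENSMUSG00000037405) lies on chr9:21015985-21028817 on the plus strand, with Icam4, a paralog, starting 555 bases beyond its end. Sele (ENSMUSG00000026582) and Selp (ENSMUSG00000026580) share a stretch of chromosome 1, at chr1:164048234-164057677 and chr1:164115264-164150026 on the plus strand. Gene models on the opposite strand overlap Vcam1 (Gm43109), Icam1 (Gm47079) and Selp (Gm16587 and Gm16548).

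The 250 bases before the RefSeq start site (GRCm38.p6) were available for 3 of the 5 genes. They are shown because Sele and Icam1 were found in SMC-gated barcodes that also held Vcam1, as described further on. Capitals mark matches on either strand to TGANTCA, a form of the AP-1 site, to TATAAA, or to GGAANTTCC, a form of the NF-κB site. The 3 motifs share no overlapping match in these windows. Other forms of these sites were not searched for, so lower-case letters do not show that a site is absent. The windows cover chr1:164047984-164048233 for Sele, chr9:21015690-21015939 for Icam1 and chr1:164115014-164115263 for Selp, all on the plus strand:
Sele: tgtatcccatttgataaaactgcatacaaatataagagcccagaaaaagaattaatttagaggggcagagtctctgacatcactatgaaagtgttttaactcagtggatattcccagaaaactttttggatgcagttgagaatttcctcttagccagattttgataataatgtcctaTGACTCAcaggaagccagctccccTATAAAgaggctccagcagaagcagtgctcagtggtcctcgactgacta
Icam1: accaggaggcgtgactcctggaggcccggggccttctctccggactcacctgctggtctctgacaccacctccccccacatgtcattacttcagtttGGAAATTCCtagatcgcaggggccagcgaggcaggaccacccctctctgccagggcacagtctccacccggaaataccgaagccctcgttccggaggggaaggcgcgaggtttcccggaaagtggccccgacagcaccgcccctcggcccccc
Selp: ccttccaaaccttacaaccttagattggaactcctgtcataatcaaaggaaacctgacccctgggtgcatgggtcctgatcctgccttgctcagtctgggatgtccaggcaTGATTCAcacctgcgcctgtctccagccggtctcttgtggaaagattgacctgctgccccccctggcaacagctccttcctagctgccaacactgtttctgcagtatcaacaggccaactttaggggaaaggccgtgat
The Sele window held TGACTCA 73 bases and TATAAA 49 bases before the start. The Icam1 window held GGAAATTCC 153 bases before the start, and the Selp window held TGATTCA 139 bases before it. Over all 32851 mouse windows of this length, TGANTCA was present in 6.75%, TATAAA in 12.4% and GGAANTTCC in 0.813%. A match describes the letters in the window and is not a shown binding site.

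Vcam1 was the only one of the 5 genes that reached 10 CPM in SMC. Its level there was 14.0 CPM in WT, 219.5 CPM in mgR and 60.7 CPM in mgR-LOS, with 95% intervals of 12.98 to 15.0, 215 to 224 and 58.9 to 62.5. The mgR level was 15.7-fold the WT level (14.6 to 17.0), the mgR-LOS level was 0.276 of the mgR level (0.267 to 0.286), and it remained 4.34-fold the WT level (4.01 to 4.70). In the mgR over WT contrast, 2.34% of the 7620 genes with at least 10 CPM in either library were at least 2-fold higher and 1.56% at least 2-fold lower, and nothing is read from these shares because that contrast chose Vcam1. In mgR-LOS over mgR the corresponding shares were 0.823% higher and 1.02% lower, and in mgR-LOS over WT 1.74% higher and 0.988% lower. Each of these contrasts shares a library with the one that chose Vcam1, so nothing is read from these shares either. When barcodes were classed without a threshold, each by its strongest panel, the 15.7-fold difference became 7.92-fold and the ratio of mgR-LOS to mgR became 0.419. With called doublets removed the mgR level was 15.3-fold the WT level.

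**Figure D1:**
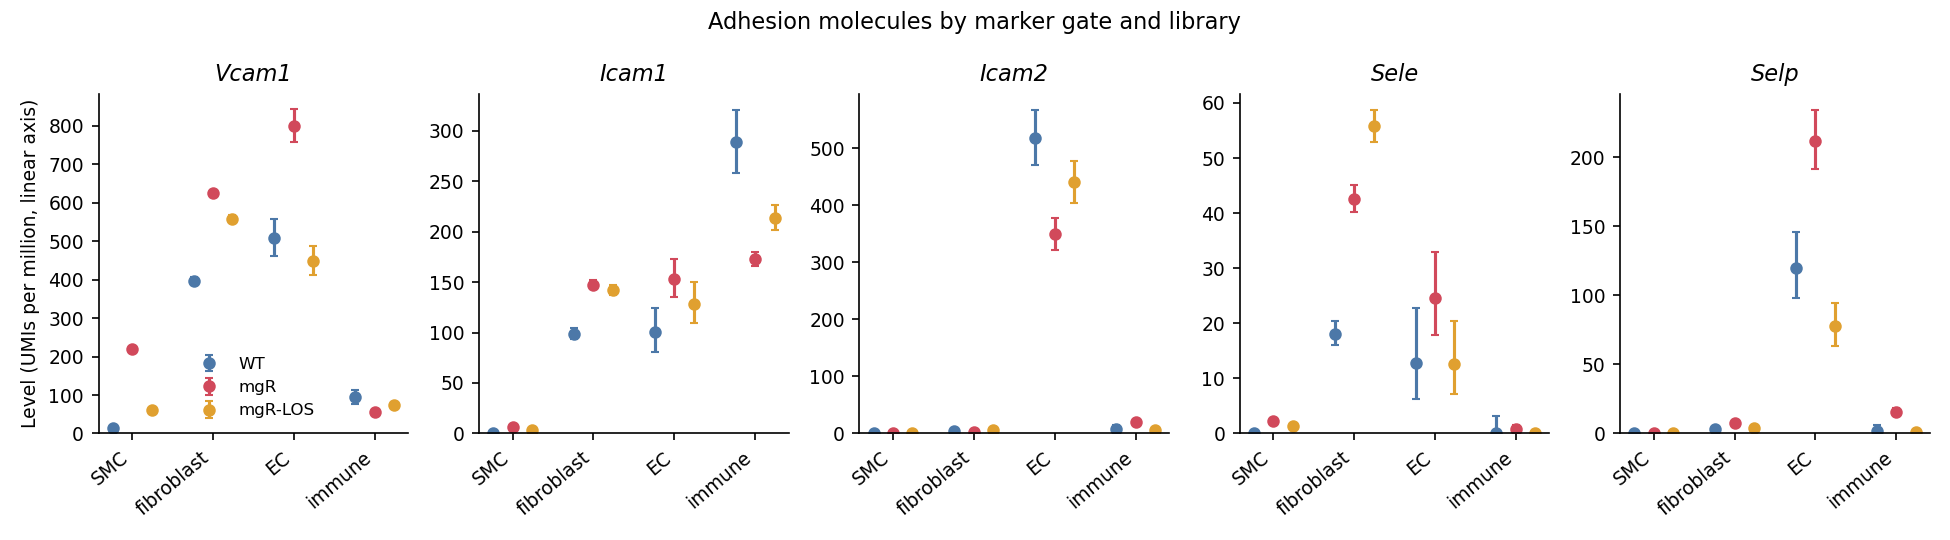
Level of each adhesion molecule (CPM, linear axes that differ between panels) in 4 marker gates of the WT, mgR and mgR-LOS libraries, with points for the summed level and bars for 95% Poisson intervals (counting error only). In SMC, Vcam1 stands at 14.0, 219.5 and 60.7 CPM in WT, mgR and mgR-LOS, Icam2 and Selp are highest in EC, and Sele is highest in fibroblasts.

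The share of SMC-gated barcodes with a Vcam1 UMI at the thinned depth was 1.07% (0.765 to 1.47) in WT, 11.3% (10.2 to 12.5) in mgR and 3.28% (2.90 to 3.70) in mgR-LOS. Without thinning the shares were 8.70%, 40.6% and 16.6%. RNA freed from other cells also gives UMIs in droplets, so Vcam1 was read in immune-gated barcodes with T, NK, B, monocyte, dendritic or neutrophil markers. These held 0 of 35 barcodes with a thinned UMI in WT, 0.943% of 636 in mgR (0.347 to 2.04) and 1.66% of 181 in mgR-LOS (0.343 to 4.77), at median depths of 4869, 6075 and 4523 UMIs. Their levels were 0, 8.73 and 13.2 CPM, with upper limits of 17.4, 11.9 and 22.1 CPM. The summed WT level in SMC lay within that upper limit, which rests on 35 barcodes, so this comparison could not tell it apart from background. It does not speak to single WT barcodes, of which the highest held 37 Vcam1 UMIs before thinning. The mgR and mgR-LOS levels in SMC lay above this pooled background level of their own libraries, although the mgR-LOS share lay within the wide interval of its background share. With T, NK and B barcodes alone, the background was 7.70 CPM (4.49 to 12.3) in mgR. In mgR-LOS it was 34.0 CPM (17.0 to 60.8), from 11 UMIs in 83 barcodes. The mgR-LOS level in SMC, 60.7 CPM, lay just within that wide interval, so against those barcodes it could not be told apart from background.

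Vcam1 was unevenly spread over SMC in all 3 libraries. Among SMC-gated barcodes thinned to 5000 UMIs, 96.1% in WT, 73.4% in mgR and 88.6% in mgR-LOS held no Vcam1 UMI. At least 2 UMIs were found in 38 of 3492 WT barcodes (1.09%), in 437 of 3030 mgR barcodes (14.4%) and in 265 of 6896 mgR-LOS barcodes (3.84%). At least 10 UMIs were found in 1, 80 and 29 barcodes. In mgR the 303 barcodes with the most Vcam1, 10% of the gate, held 79.5% of its UMIs. The top 10% held 100% of the UMIs in WT, where most barcodes had none, and 94.9% in mgR-LOS. By this measure Vcam1 was least concentrated in mgR. As shares, 10 UMIs or more were held by 2.64% of mgR and 0.421% of mgR-LOS barcodes. The losartan library thus had a smaller share of SMC-gated barcodes with Vcam1, also in the upper tail. The highest single barcode held 12 UMIs in WT, 51 in mgR and 52 in mgR-LOS, out of unequal numbers of barcodes.

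**Figure D2:**
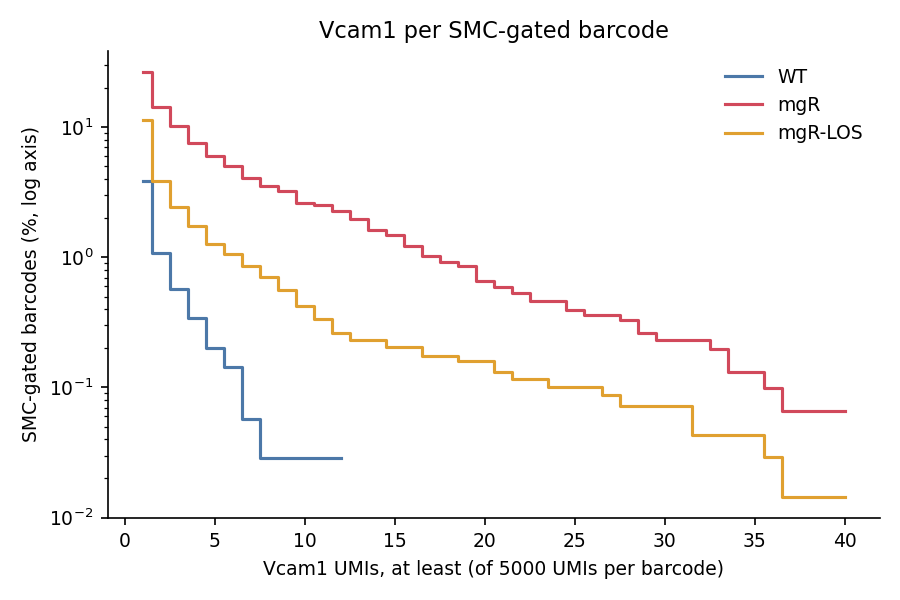
Share of SMC-gated barcodes (%, log axis) that held at least the number of Vcam1 UMIs on the horizontal axis, after thinning each barcode to 5000 UMIs, for WT, mgR and mgR-LOS. At 2 UMIs or more the curves stand at 1.09%, 14.4% and 3.84%, and the WT curve ends at 12 UMIs while both mutant curves run to 40, the last value drawn.

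SMC-gated barcodes with at least 2 Vcam1 UMIs were then compared with those at 0 within each library, which is a description of cells sharing 1 library and not a test. In mgR, the 10 genes with the largest ratio at 100 CPM or more were Cxcl1, Lum, Cd34, Thbs1, Timp1, Col8a1, Dcn, Ptgs2, Tnnt2 and Irf1. Cxcl1, a chemokine that draws neutrophils, stood at 228 CPM against 27.6 CPM (8.26-fold), Lum, a collagen-binding proteoglycan, at 191 against 26.9 CPM (7.10-fold), and Thbs1, which encodes the matricellular protein thrombospondin-1, at 511 against 84.5 CPM (6.05-fold). Cxcl1, Thbs1, Lum and Irf1 also led in mgR-LOS, and Lum and Thbs1 led in WT. The barcodes with Vcam1 held a lower share of the SMC panel, with a median of 336 against 547 UMIs per 10000 in mgR, 378 against 513 in mgR-LOS and 412 against 539 in WT. Their median fibroblast panel in mgR was 1.06 against 0.521 UMIs per 10000, against a gate limit of 10, and the median EC and immune panels were 0 in both. Called doublets made up 15.1% of the mgR barcodes with Vcam1 and 5.53% of those at 0, and their part in the difference was not tested.

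Of the 12 listed genes of modulated SMC, 10 were measured at 10 CPM or more in this split of mgR and 6 were at least 2-fold higher in the barcodes with Vcam1, against 2.24% of all 7640 genes. The 6 were Spp1, Timp1, Lum, Dcn, Tnfrsf11b and Mgp, and none was 2-fold lower, against 0.445% of all genes. Spp1, which encodes osteopontin, stood at 94.3 against 11.6 CPM (8.11-fold), and Mgp, the matrix inhibitor of calcification, at 54133 against 19117 CPM (2.83-fold). Of the 8 contractile genes 0 passed 2-fold in either direction, but all 8 were lower, from 0.549-fold for Cnn1, a calponin, to 0.776-fold for Smtn, smoothelin. Of these, 7 also belong to the SMC panel of the gate. In WT 8 of 10 modulated genes were at least 2-fold higher (4.99% of all genes higher, 3.25% lower), and in mgR-LOS 6 of 10 (1.71% higher, 0.283% lower). The lists were drawn up with earlier results of these data known.

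Genes of the cytokine and NF-κB route were read in the same split. Of 17 listed, 12 were measured in mgR and 3 were at least 2-fold higher in the barcodes with Vcam1, against 2.24% of all genes. These were Tnfaip3, which encodes the NF-κB inhibitor A20, at 40.0 against 8.88 CPM (4.50-fold), the transcription factor gene Irf1 at 182 against 49.1 CPM (3.70-fold), and Nfkbia, which encodes IκBα, at 494 against 168 CPM (2.94-fold). In mgR-LOS the same 3 and Nfkb2, an NF-κB subunit gene, passed 2-fold, 4 of 12 measured against 1.71% of all genes. In WT, where 38 barcodes held at least 2 Vcam1 UMIs, 5 of 11 measured were at least 2-fold higher and 0 lower. The WT shares of all genes were 4.99% and 3.25%. Tnf and Ifng, both cytokine genes, stood at or under 0.961 CPM on both sides of the mgR split.

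**Figure D3:**
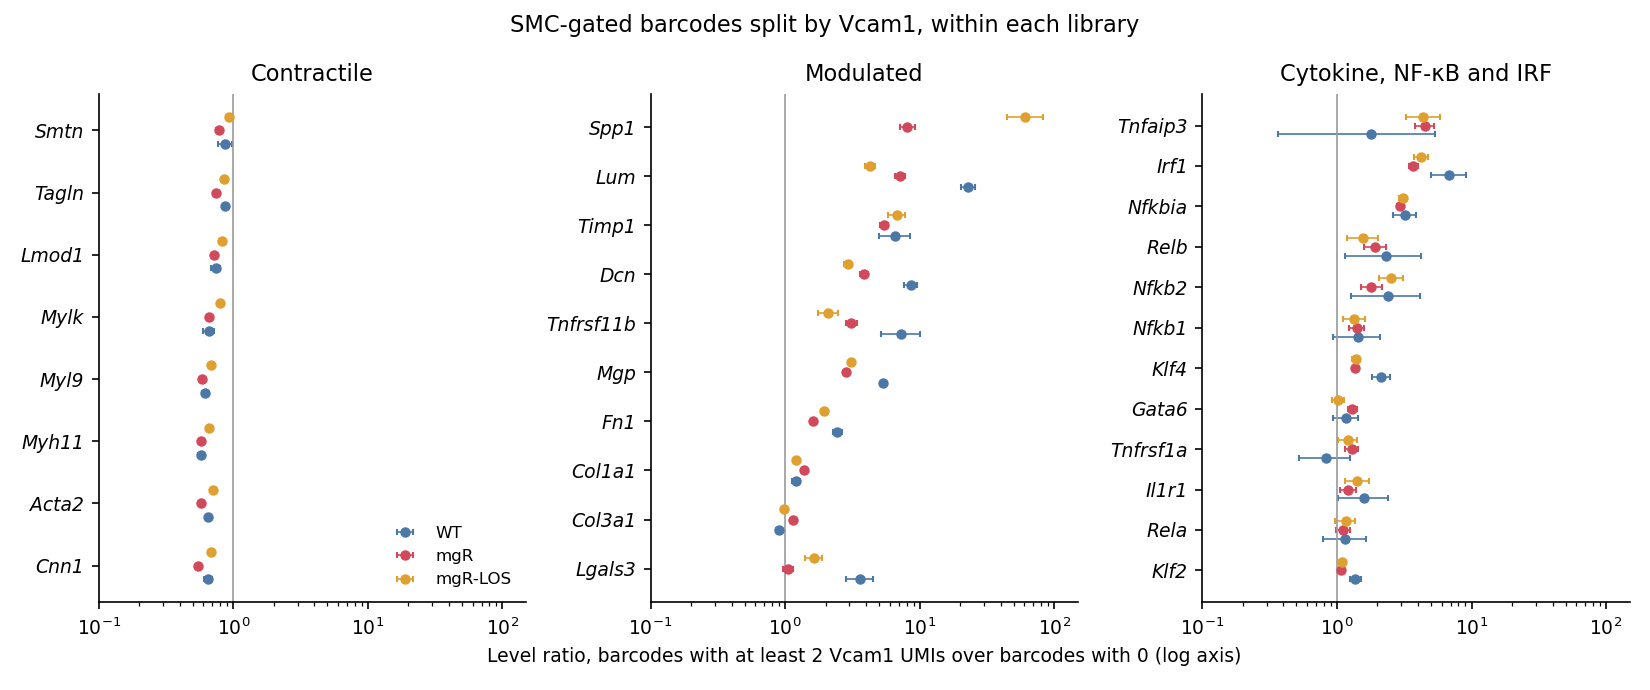
Ratio of levels (log axes) between SMC-gated barcodes with at least 2 Vcam1 UMIs and those with 0 after thinning to 5000 UMIs, for contractile, modulated and cytokine, NF-κB or IRF genes with at least 10 CPM in mgR, with exact 95% counting intervals and one color per library. All contractile genes lie between 0.549 and 0.929, Spp1 reaches 60.2 in mgR-LOS and is left out for WT because the WT barcodes with Vcam1 held none, and Tnfaip3, Irf1 and Nfkbia lead the right panel in mgR.

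The same lists were read between libraries over the whole SMC gate. They were drawn up with earlier results of these data known, and the mgR over WT contrast chose Vcam1. The counts below are therefore a description and carry no test. In mgR over WT, 6 of 10 measured modulated genes were at least 2-fold higher (Spp1, Timp1, Fn1, Lgals3, Tnfrsf11b and Mgp), against 2.34% of all genes, with a list median of 1.499 on the log2 scale against -0.02 over all genes. Fn1, which encodes fibronectin, another ligand of α4β1, stood at 461 CPM in WT, 1833 CPM in mgR and 552 CPM in mgR-LOS. Of 12 measured cytokine and NF-κB genes 3 were at least 2-fold higher, again Nfkbia, Tnfaip3 and Irf1, and 0 of either list were 2-fold lower (1.56% of all genes). Irf1 stood at 13.1, 73.4 and 31.5 CPM in WT, mgR and mgR-LOS, and Tnfaip3 at 2.85, 15.8 and 5.94 CPM. In mgR-LOS over mgR, 4 modulated genes (Spp1, Timp1, Fn1 and Mgp) and 2 of the NF-κB list (Tnfaip3 and Irf1) were at least 2-fold lower, out of 10 and 12 measured and against 1.02% of all genes, and 0 of either list were 2-fold higher (0.823%). In mgR-LOS over WT, 3 of 11 measured cytokine and NF-κB genes, Nfkbia and Irf1 among them, were at least 2-fold higher. Of 9 measured modulated genes 1 was (Tnfrsf11b), and 0 of either list were 2-fold lower. The contractile list had 0 of 8 genes past 2-fold in all 3 contrasts, and in mgR-LOS over WT 1.74% of all genes were higher and 0.988% lower. Most contractile genes also belong to the SMC panel that sets the gate, so the gate itself limits how low they can read.

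The other 4 genes stayed under 10 CPM in SMC and were not counted against the 2-fold rule. Icam1 stood at 0.795 CPM in WT (41 UMIs), 6.26 CPM in mgR (301 UMIs) and 3.42 CPM in mgR-LOS (242 UMIs), a ratio of mgR to WT of 7.87 (5.67 to 11.2). Sele had 0 UMIs in WT, 112 in mgR (2.33 CPM) and 90 in mgR-LOS (1.27 CPM). Set against a floor of 3 counts over the WT gate, the mgR level was 40.0-fold higher. The exact counting interval of the ratio of mgR to WT had a lower limit of 32.0. The Sele UMIs of mgR came from 25 barcodes, of which 21 also held Vcam1 (84.0%, against 40.2% of the other SMC-gated barcodes). Of these 25 barcodes 10 were called doublets, and they held 59 of the 112 UMIs. Icam1 was found in 113 mgR barcodes, 68 of them with Vcam1 (60.2% against 39.9%), and 30 of the 113 were called doublets, which held 155 of the 301 UMIs (in WT 11 of 41). The part of doublets in these levels was not tested. Icam2 did not exceed 0.439 CPM and Selp did not exceed 0.582 CPM in SMC of any library.

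In fibroblasts, Vcam1 was high in all 3 libraries. It stood at 396, 625 and 558 CPM in WT, mgR and mgR-LOS (385 to 406, 616 to 634 and 549 to 567), so mgR was 1.58-fold WT (1.53 to 1.63) and mgR-LOS 0.893 of mgR (0.874 to 0.913). Icam1 stood at 98.7, 147 and 142 CPM, 1.49-fold higher in mgR than in WT (1.41 to 1.59) and 0.965 of mgR in mgR-LOS (0.923 to 1.01). Neither gene passed 2-fold, and for Icam1 the interval between mgR-LOS and mgR included 1. Icam2 and Selp stayed at or under 7.55 CPM in every fibroblast gate, and the ratio of mgR to WT for Selp, from 2.92 to 7.55 CPM, was 2.58 (1.85 to 3.69).

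Sele was the gene of the set with the largest ratio between mgR and WT among those that reached 10 CPM in fibroblasts. Its level was 18.1, 42.6 and 55.8 CPM in WT, mgR and mgR-LOS (16.01 to 20.5, 40.3 to 45.1 and 52.9 to 58.8), with no overlap between these intervals of UMI counts. Counted by barcode, the share with a thinned Sele UMI was 1.17% (0.656 to 1.92), 3.14% (2.46 to 3.95) and 3.39% (2.77 to 4.10). The mgR and mgR-LOS intervals of that share overlapped. The mgR level was 2.35-fold WT (2.05 to 2.70), and the mgR-LOS level was 1.31-fold mgR (1.21 to 1.41) and 3.07-fold WT (2.69 to 3.52). Of the 3 genes measured in fibroblasts, Sele alone passed 2-fold in mgR over WT, where 2.95% of all genes were higher and 1.93% lower, and in mgR-LOS over WT (2.13% higher, 1.41% lower). In mgR-LOS over mgR 0 of 3 passed (0.787% higher, 0.942% lower). With barcodes classed by their strongest panel the mgR ratio was 1.93 and no longer passed 2-fold. Without barcodes rich in pericyte markers it was 2.89.

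The Sele UMIs of fibroblasts sat in few barcodes. After thinning to 5000 UMIs they were found in 38 of 1098 WT, 150 of 2069 mgR and 206 of 2355 mgR-LOS barcodes. In mgR these barcodes also held more of Areg, an EGF receptor ligand (118 against 9.09 CPM), Cd74, the MHC class II invariant chain (184 against 20.8 CPM), the chemokine genes Cxcl2 (613 against 112 CPM) and Ccl2 (1343 against 341 CPM), and Vcam1 (1915 against 529 CPM, 3.62-fold). Vcam1 was 8.67-fold higher in the Sele barcodes of WT and 4.26-fold higher in those of mgR-LOS. Of the 13 NF-κB and cytokine genes measured, 5 in WT, 3 in mgR and 4 in mgR-LOS were at least 2-fold higher, against 7.97%, 2.74% and 4.18% of all genes (9.03%, 2.91% and 3.92% lower). Nfkb1, Tnfaip3 and Irf1 were among them in each library, with Irf1 at 436 against 181 CPM in mgR. Fibroblasts were also split by Vcam1, with at least 2 UMIs against 0. In that split 4 of 13 measured genes of the list were at least 2-fold higher in WT, 0 in mgR and 2 in mgR-LOS. The shares of all genes there were 2.68%, 2.17% and 3.01% higher and 2.44%, 2.84% and 2.61% lower. Called doublets were 0 of the WT and of the mgR Sele barcodes and 1.94% of those of mgR-LOS. On the panel scale used for SMC, the Sele barcodes had a lower median fibroblast panel in each library. It was 30.4 against 46.7 in WT, 32.8 against 42.6 in mgR and 42.9 against 61.0 in mgR-LOS. Their median EC panel was higher, at 0.842 against 0, 1.06 against 0.559 and 1.09 against 0 in the same order. The part of these panel differences in the Sele levels was not tested.

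**Figure D4:**
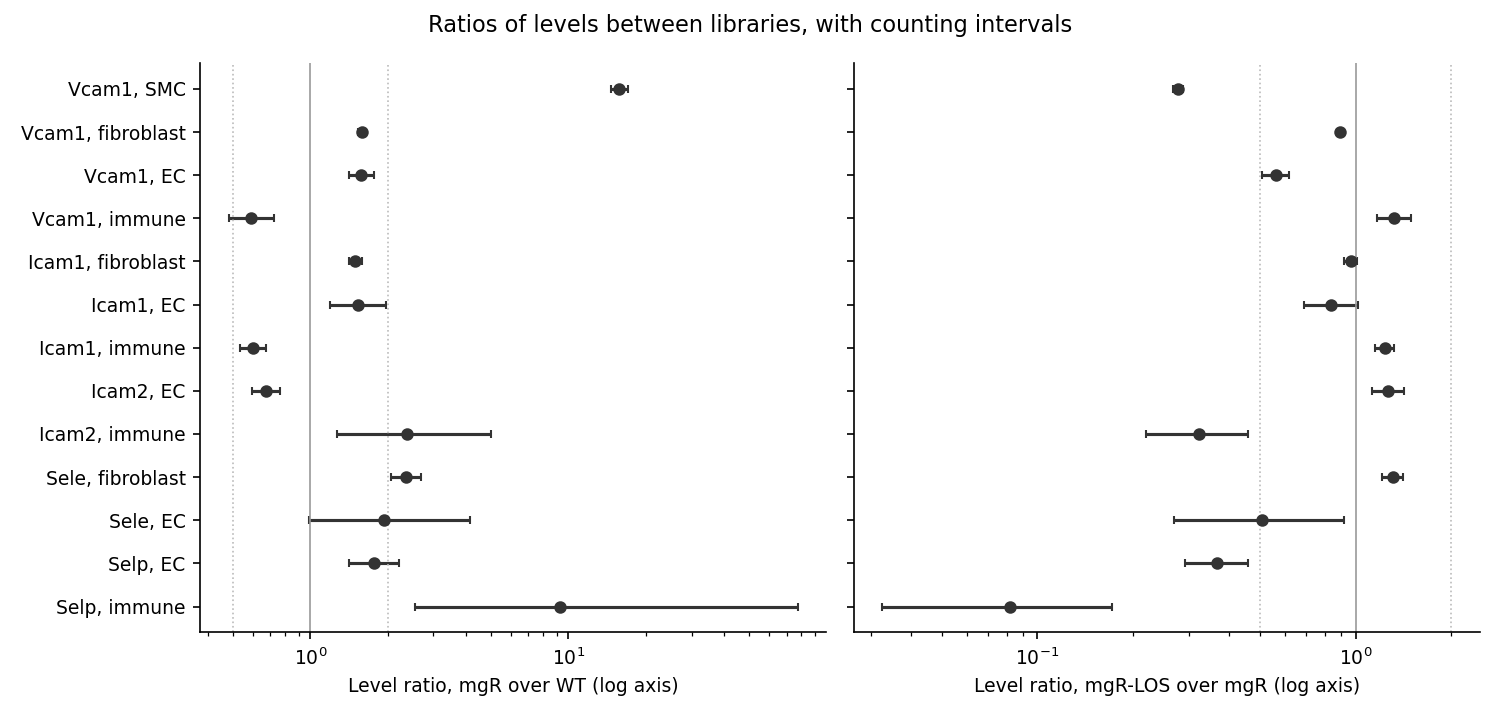
Ratio of levels between libraries (log axes) for each adhesion molecule and gate with at least 10 CPM in either library, mgR over WT on the left and mgR-LOS over mgR on the right, with exact 95% counting intervals, a solid line at 1 and dotted lines at 2-fold. The mgR library enters both panels. Vcam1 in SMC stands at 15.7 and 0.276, and Vcam1 and Icam1 in immune cells lie below 1 on the left (0.590 and 0.599).

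In EC, where these molecules meet circulating leukocytes, all 5 genes were measured. For Vcam1 the levels were 507 CPM in WT, 800.1 CPM in mgR and 449 CPM in mgR-LOS (intervals 461 to 557, 759 to 843 and 413 to 487). The mgR level was 1.58-fold WT (1.42 to 1.76) and the mgR-LOS level 0.561 of mgR (0.508 to 0.619), with WT and mgR-LOS overlapping. Counted by barcode, the share with a thinned Vcam1 UMI was 28.7% (20.4 to 38.2), 35.2% (28.8 to 42.0) and 24.6% (18.4 to 31.6) in WT, mgR and mgR-LOS. The intervals of these shares overlapped. Selp stood at 120.1, 212 and 77.6 CPM (98.2 to 146, 191 to 234 and 63.1 to 94.5), 1.76-fold WT in mgR (1.42 to 2.21) and 0.366 of mgR in mgR-LOS (0.290 to 0.458). The ratio of mgR-LOS to WT for Selp was 0.646 (0.485 to 0.859). Counted by barcode, a thinned Selp UMI was held by 9.26% (4.53 to 16.4) in WT and 14.4% (9.96 to 19.7) in mgR. In mgR-LOS the share was 9.14% (5.32 to 14.4), and all of these intervals overlapped. The highest single mgR barcode held 32 of the 379 Selp UMIs. Icam1 stood at 100.5, 153 and 128.5 CPM (1.52-fold in mgR, 1.19 to 1.96), and its mgR-LOS and mgR intervals overlapped. Icam2 ran the other way, at 517 CPM in WT, 349 CPM in mgR and 440.4 CPM in mgR-LOS, a ratio of mgR to WT of 0.674 (0.596 to 0.763). Sele was thin, with 11, 44 and 16 UMIs and a ratio of mgR to WT of 1.94 (0.984 to 4.16), which passed 2-fold with a stricter gate (2.06) or Leiden clusters (2.09). Its ratio of mgR-LOS to mgR was 0.510 (0.268 to 0.921), and 0.348 with at most 5% mitochondrial UMIs.

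None of the 5 genes passed 2-fold in EC in mgR over WT (4.69% of all genes higher, 3.55% lower) or in mgR-LOS over WT (5.19% and 4.38%). In mgR-LOS over mgR, Selp alone passed, 2-fold lower by summed level (3.09% higher, 3.12% lower). Of the 17 cytokine and NF-κB genes 13 were measured in EC and 4 were at least 2-fold higher in mgR than in WT. These were Il1r1, an interleukin-1 receptor gene (5.78, 24.04 and 15.7 CPM in WT, mgR and mgR-LOS), the NF-κB subunit genes Nfkb2 (11.6, 26.3 and 29.0 CPM) and Relb (13.9, 30.8 and 18.0 CPM), and Tnfaip3 (18.5, 38.6 and 13.3 CPM). A count of 3 in the WT gate of 108 barcodes equals 3.47 CPM, so the WT levels of these 4 genes rest on few UMIs. Il1r1 is also a marker used to assign venous EC, which made up 5.56%, 11.5% and 10.9% of the gate. The part of that difference was not tested. Klf2, a flow-induced transcription factor gene, stood at 1810 CPM in WT, 1511 CPM in mgR and 1228 CPM in mgR-LOS. Among 13 measured genes of endothelial adhesion and passage, Nectin2 alone was 2-fold higher in mgR (34.7 against 91.7 CPM).

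EC are not uniform, and the gate mixed subsets in unequal shares. Barcodes led by luminal aortic markers made up 35.2%, 34.1% and 32.6% of EC in WT, mgR and mgR-LOS, whereas those led by lymphatic markers made up 13.9%, 27.2% and 13.7%. Luminal EC held most of the Vcam1 UMIs (335 of 439, 920 of 1431 and 338 of 573), at 1065, 1746 and 834 CPM in WT, mgR and mgR-LOS (954 to 1185, 1635 to 1862 and 747 to 928), over 38, 74 and 57 barcodes. Within that subset mgR was 1.64-fold WT (1.45 to 1.86) and mgR-LOS 0.478 of mgR (0.421 to 0.542). Icam1 within luminal EC stood at 105, 262 and 209.7 CPM (2.50-fold in mgR, 1.70 to 3.77), Selp at 156, 330.1 and 175 CPM (2.12-fold, 1.54 to 2.97), and Icam2 at 740.5, 594 and 646.5 CPM (0.802, 0.675 to 0.954). The luminal Selp level of mgR-LOS was 0.531 of mgR (0.397 to 0.703), which did not pass 2-fold. EC barcodes that no subset claimed also held Vcam1, at 348, 1379 and 562 CPM. In the lymphatic subset Vcam1 had 0, 8 and 5 UMIs and Sele had 0 in every library, while Icam2 was present at 294, 146 and 226 CPM. In the venous subset, which held 6, 25 and 19 barcodes, Selp stood at 638, 357.5 and 187 CPM, and all 23 WT UMIs came from 1 barcode. The capillary subset, of 17, 28 and 24 barcodes, held Icam1 at 306 CPM in WT against 83.6 CPM in mgR and 44.7 CPM in mgR-LOS, and 20 of the 40 WT UMIs came from 1 barcode.

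**Figure D5:**
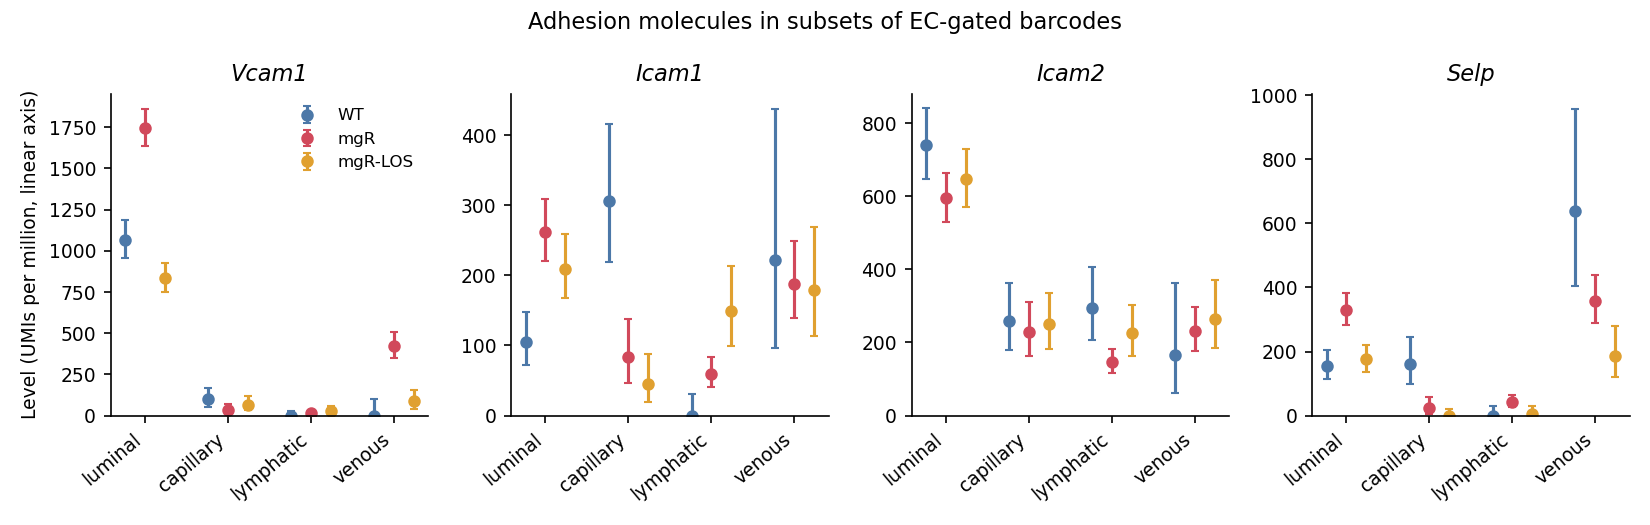
Levels of Vcam1, Icam1, Icam2 and Selp (CPM, linear axes that differ between panels) in EC-gated barcodes assigned to luminal, capillary, lymphatic or venous markers, with 95% Poisson intervals for WT, mgR and mgR-LOS. Luminal Vcam1 stands at 1065, 1746 and 834 CPM, and the wide bars of venous WT come from 6 barcodes.

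In immune cells the order of the libraries by summed level differed from that in the vessel wall. Icam1 stood at 288, 173 and 213 CPM in WT, mgR and mgR-LOS (258 to 321, 166 to 180 and 201 to 226), a ratio of mgR to WT of 0.599 (0.535 to 0.674). Vcam1 stood at 94.7, 55.8 and 73.6 CPM (77.9 to 114, 51.9 to 59.9 and 66.5 to 81.2), a ratio of 0.590 (0.483 to 0.726). The makeup of the gate differed too, with macrophage markers leading in 56.5%, 43.0% and 53.1% of its barcodes. Within macrophages Vcam1 stood at 95.3, 91.4 and 107 CPM, and the ratio of mgR to WT was 0.960 (0.746 to 1.25), an interval that includes 1. Icam1 within macrophages stood at 294, 212 and 213 CPM (0.720, 0.623 to 0.837), and 47 of the 210 WT UMIs came from 1 barcode. Neutrophil-marked barcodes of mgR, 75 in number, held Icam1 at 620.4 CPM (520.5 to 734), while WT and mgR-LOS held 4 and 12 such barcodes.

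Icam2 and Selp were higher in mgR immune cells, and both differences rested on one small cluster. Selp had 2 UMIs in WT (1.71 CPM), 216 in mgR (15.9 CPM) and 7 in mgR-LOS (1.30 CPM), and Icam2 had 10, 275 and 35 UMIs (8.53, 20.2 and 6.51 CPM). The ratios of mgR to WT were 9.31 (2.55 to 77.4) for Selp and 2.37 (1.27 to 4.99975) for Icam2. Both genes reached 10 CPM through mgR alone, where they were high, so no count of the set is read from their passing 2-fold there (3.58% of all genes higher, 2% lower) or in mgR-LOS over mgR (1.11% higher, 2.15% lower). Vcam1 and Icam1 did not pass 2-fold in these contrasts or in mgR-LOS over WT (3.76% and 2.64%). Of the 216 Selp UMIs, 196 came from 1 cluster of 39 barcodes, 35 of which held Selp. That cluster also held Icam2 at 415.5 CPM, Prg4, which encodes lubricin, at 3602 CPM, Alox15, a lipoxygenase gene, at 2333 CPM, the coagulation factor V gene F5 at 871 CPM, and the transcription factor gene Gata6 at 145 CPM. Of 5 platelet markers, Ppbp, Gp9, Itga2b and Gp1bb had 0 UMIs in the cluster, whereas Pf4, which tissue macrophages also express, had 829 UMIs in the 53 immune-gated barcodes with Selp and 16177 in the rest of the gate. Without it the ratios of mgR to WT were 0.888 for Selp and 0.968 for Icam2.

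The integrins and ligands that bind these molecules were read in immune cells. Itgal, the αL subunit that binds ICAM-1, was at least 2-fold lower in mgR than in WT (82.7, 37.7 and 32.3 CPM in WT, mgR and mgR-LOS). T or NK markers led in 14.5%, 8.41% and 9.08% of the gate in the same order, and the part of this makeup was not tested. Of the listed genes, 12 stayed within 2-fold between mgR and WT, where 3.58% of all genes were at least 2-fold higher and 2% lower. Itga4, the α4 subunit that binds VCAM-1, stood at 107, 106 and 120.3 CPM, and Itgb2, the β2 subunit, at 214, 204 and 208.5 CPM. Selplg, the P-selectin ligand gene, stood at 140, 163 and 166 CPM.

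Set in order within each library by level, Vcam1 ran from EC through fibroblasts and immune cells to SMC in WT. In mgR the order was EC, fibroblasts, SMC and immune cells, so SMC and immune cells had changed places. In mgR-LOS it was fibroblasts, EC, immune cells and SMC. The intervals of neighbors in these orders did not overlap. Icam1 was highest in immune cells and lowest in SMC in every library, and its EC and fibroblast intervals overlapped in all 3, as did those of immune cells and EC in mgR. Over the 12 sums of 4 gates in 3 libraries, the genes whose levels followed Vcam1 most closely on the log2 scale were Cp, Lamb1, Smpd3, Stx2 and Sh3gl1, with Pearson's r from 0.907 to 0.945 among 8852 genes. The closest for the others were Man1a for Icam1 (r = 0.994), Notch1 for Icam2 (0.986), Serpina3n for Sele (0.978) and Erap1 for Selp (0.981). These sums share libraries and gates and are not independent, so no p is given.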

How the data were processed

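The authors deposited gene-by-barcode counts of UMIs for 3 libraries (10x 3′ v3.1), already limited to barcodes with at least 500 UMIs, aligned with Cell Ranger to GRCm38. The file headers name version 5.0.1 for WT and mgR and 6.0.1 for mgR-LOS, and the submitters' processing notes name 6.0.1. Whether this difference moved any value was not tested. The filter kept barcodes in which 600 to 5000 genes were detected and mitochondrial UMIs did not exceed 10%. It left 5361, 8076 and 12721 of 7858, 10657 and 14663 barcodes in WT, mgR and mgR-LOS. Gates required 100 (SMC) or 10 (fibroblast, EC, immune) panel UMIs per 10000 in exactly 1 panel, and these limits were set after the panel distributions were seen. Between 289 and 934 barcodes per library lay within 1.5 times of a limit, 124 to 730 passed more than 1 panel and 76 to 255 passed none. Doublets were called with an artificial-neighbor score and kept. The immune and EC subsets were given by the highest marker score (at least 0.25, with 2 markers). Poisson, Clopper-Pearson and conditional binomial intervals are exact, made with scipy 1.17.1. Clusters were made with scanpy 1.11.5, without the 5 genes. The fold and interval code was checked on simulated data. The genes, lists and tests were chosen with earlier results of these data known. The named genes were the 5, the listed pathway genes, the 5 closest to Vcam1, and the 10 largest ratios at 100 CPM or more in the mgR split by Vcam1. The same rules were then applied to the other splits and genes, and the cluster genes were named after their values were seen. 1 listed gene is not reported here.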

Additional observations from a re-analysis of the deposited data

Results flagged for a closer look

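The difference between mgR and WT in summed level ran in opposite directions in different gates for Vcam1 and Icam1. Vcam1 was higher in mgR in SMC (15.7-fold), fibroblasts (1.58-fold) and EC (1.58-fold) and lower in immune cells (0.590), so the ratios stood 26.6, 2.68 and 2.68 times apart. The 26.6 contains the SMC contrast by which the genes were chosen and is a description. Within macrophages the Vcam1 ratio was 0.960 (0.746 to 1.25), an interval that includes 1. Icam1 was higher in EC (1.52-fold) and lower in immune cells (0.599), 2.54 times apart. Counted by barcode, the WT and mgR intervals of the shares overlapped for both genes in immune cells and in EC. Single WT immune barcodes held 64 of 338 Icam1 UMIs and 33 of 111 Vcam1 UMIs. The differences between gates were not tested, since each condition had 1 library.

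Levels above WT also appeared in barcodes outside the 4 gates. In barcodes that passed more than 1 panel, Vcam1 stood at 467 CPM in mgR and 372 CPM in mgR-LOS against 118 CPM in WT, and Icam1 at 105 and 95.7 CPM against 37.7 CPM. Called doublets were 58 of 124, 234 of 525 and 506 of 730 of these barcodes in WT, mgR and mgR-LOS. Their SMC panel stood at 329, 189 and 256 UMIs per 10000 and their immune panel at 0.853, 10.9 and 6.62. The part of doublets and of this makeup was not tested. In barcodes that passed no panel, Vcam1 stood at 683 and 756 CPM against 364 CPM in WT, and Icam1 at 108 CPM in mgR against 54.1 CPM. In barcodes that failed the filters on genes or mitochondrial UMIs, Vcam1 stood at 379 CPM in mgR and 259.5 CPM in mgR-LOS against 114 CPM in WT, and Icam1 at 57.3 CPM in mgR against 24.3 CPM.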

How the results depend on the processing

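Vcam1 in SMC kept its direction and stayed past 2-fold in all 3 contrasts under all 13 alternatives, 4 of them (mixed barcodes taken in, SMC limits of 50 and 200, barcodes rich in pericyte markers removed) added after seeing the data. The ratio of mgR to WT was 12.8 with at most 5% mitochondrial UMIs, 13.8 with a stricter gate, 7.92 with the highest mean marker level, 14.1 with Leiden clusters, 14.4 with mixed barcodes taken in, and 13.7 and 13.03 with SMC limits of 50 and 200. That of mgR-LOS to mgR was 0.238, 0.419 and 0.344 with at most 5% mitochondrial UMIs, the highest mean marker level and Leiden clusters, 0.257 as a mean over barcodes, 0.340 with mixed barcodes and 0.295 at 200. That of mgR-LOS to WT was 3.06, 3.92, 3.32 and 4.83 with these and the stricter gate (5%, stricter gate, highest marker, Leiden), 3.89 as a mean over barcodes, 4.90 with mixed barcodes, and 3.86 and 3.84 at 50 and 200. The causes were not tested. The 297 genes past 2-fold in SMC became 5421 with no filter on low levels and 101 at 50 CPM or more. With the highest mean marker level they became 440, of which 75.9% were higher against 59.9%, and with mixed barcodes taken in 70.4% of 355 were higher. Of 319 values for the other genes and gates, 276 stayed within the counting interval, 40 moved and 3 were scored as turned in direction. A turn was scored only where the main ratio passed 2-fold, so smaller ratios that crossed 1 would fall under the 276 or the 40. The 3 were Icam2 in immune cells, mgR over WT, at 0.892 as a mean over barcodes and 0.968 without the Selp cluster, and Selp at 0.888 without it. Thinning to 2000 UMIs gave Vcam1 shares in SMC of 1.996%, 16.9% and 5.97%. No paired analysis was possible because each condition had 1 library. EC and WT immune gates held few barcodes, which limits what was detectable there.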
